A study of Mus musculus with 12 samples.

Results

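Neo1-mutant and wild-type netrin-1 were compared over all autosomal genes of CGR8 mouse embryonic stem cells: 3 libraries with the neo1 MUT transgene against 3 with netrin-1 WT, out of 12 libraries in the series. The replicate number in the titles (1 to 3) entered the fit as a block, so that each mutant library was compared with the wild-type library of its own number. Of 52661 genes in the raw table, 48821 were matched to chromosomes 1 to 19, and 20246 of these passed the filter on low counts and were tested. A gene was called at a Benjamini-Hochberg adjusted p of at most 0.05 in the edgeR quasi-likelihood test, and "rose" and "fell" mean called higher and called lower in neo1 MUT than in netrin-1 WT.

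CGR8 is an established mouse embryonic stem cell line, grown here in serum with leukemia inhibitory factor (LIF), a cytokine that sustains self-renewal. All groups carried a stably transfected ppy-cagg-ires-puro vector, in which a strong ubiquitous promoter drives the transgene and a puromycin resistance gene. The vector was empty in the control cells, and it encoded netrin-1 with a wild-type sequence (netrin-1 WT), a form named for neogenin (neo1 MUT) or a form named for Unc5b (unc5B MUT). The series' design text calls the mutants point mutants of interaction with the receptors; the labels do not name the residue, and do not say whether a group was 1 clone or a pool, or whether the 3 libraries of a group were grown apart. The p-values accordingly reflect only how much these libraries vary once the number is taken out, and that variation may be technical.

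Netrin-1 is a secreted protein related to the laminins that steers growing axons and also acts outside the nervous system. It binds Dcc and neogenin, transmembrane receptors with immunoglobulin and fibronectin type III repeats, and the Unc5 receptors. Neogenin also binds the repulsive guidance molecules, which act as co-receptors of bone morphogenetic proteins (BMP). In embryonic stem cells the pluripotency network around Pou5f1, Sox2 and Nanog keeps the undifferentiated state, and a minority of cells in serum turn towards primitive endoderm.

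The 6 libraries held 23698151 to 42846220 estimated counts. The number 3 libraries stood apart: they were the shallowest (23698151 to 24736421), and pseudogenes took 4.08% to 4.43% of their counts against 2.27% to 2.60% in numbers 1 and 2. Levels below are CPM, counts scaled to library size after TMM normalization, listed as replicates 1, 2 and 3. Outside the autosomes, 9 of 23 tested Y-linked genes fell and none rose: Ddx3y had 0.726, 0.445 and 0.367 CPM in neo1 MUT against 74.4, 82.3 and 30.7 in netrin-1 WT, and 107, 95.6 and 49.4 in control. Not every gene annotated to chromosome Y was near absent: Kdm5d kept 0.919, 1.23 and 2.73 CPM in neo1 MUT. Gm47283, annotated at chrY:90784738-90816464, had 246, 224 and 216 CPM against 328, 355 and 190 (edgeR adjusted p = 0.395). Whether the reads counted for Kdm5d and Gm47283 came from chromosome Y was not tested. Of 717 tested X-linked genes 47 were called (6.56%), 43 of them lower. The part of these differences in the autosomal ones was not tested.

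RNA of the targeted gene was high in both groups. Ntn1 had 219, 201 and 56.4 CPM in neo1 MUT, 288, 223 and 76.9 CPM in netrin-1 WT and 15.4, 9.09 and 0.782 CPM in control. The mutant and wild-type ranges overlapped and both lay above control, with a log2 fold change of -0.34 ± 0.30 (SE) between them (edgeR adjusted p = 0.67). A count per gene does not tell transgene from endogenous transcripts and does not read the mutated residue.

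With the mutant, 79 autosomal genes rose and 284 fell, 363 in all or 1.79% of those tested (0.39% higher and 1.4% lower). The median absolute log2 fold change of the called genes was 1.18, and 230 of them differed at least 2-fold (45 higher, 185 lower). The sign was the same in all 3 numbers for 362 of the 363. The test with the block itself favours such genes, so this count is no separate support. In 267 the 3 libraries of each group did not overlap, against 1631 of all 20246 tested genes (8.06%). Protein-coding genes made up 294 of the calls (77 higher, 217 lower), and of 1170 tested lincRNAs 33 fell and 0 rose. The calls rest on the block: without it, 9 genes were called (1 higher, 8 lower, 0.0445%), all of them among the 363. The fit of the 6 libraries alone, with the block, called 66. Leaving out 1 library gave 133, 166 and 183 calls without neo1 MUT 1, 2 and 3, and 214, 118 and 361 without netrin-1 WT 1, 2 and 3. The plot of level against difference shows where these genes lie.

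**Figure D1:**
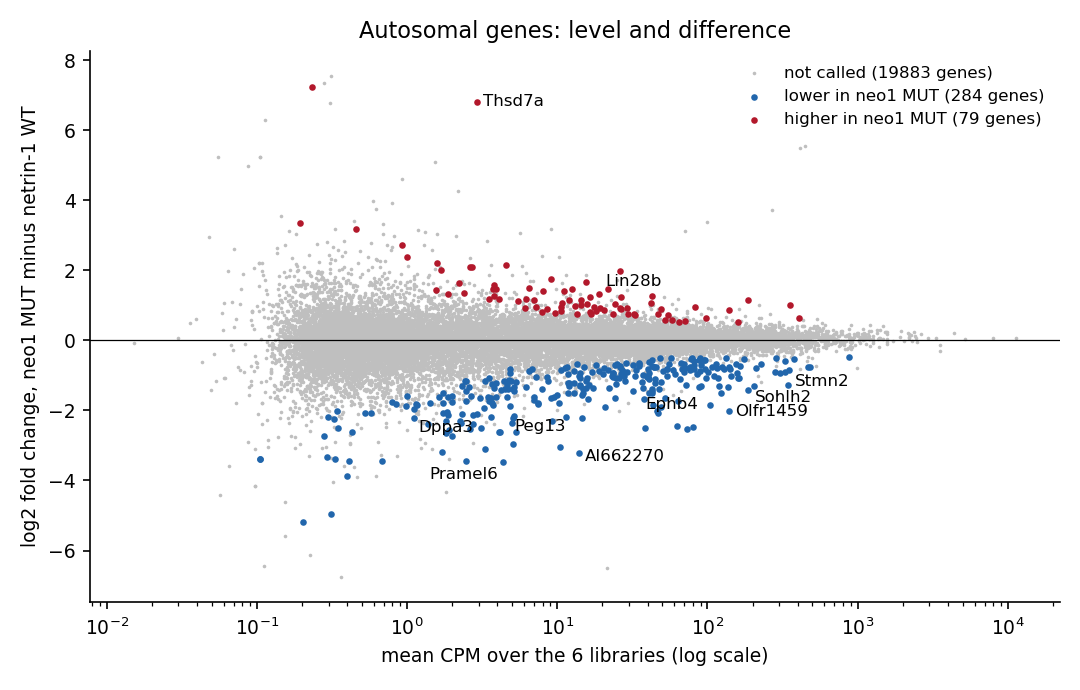
Each point is an autosomal gene, placed by its mean CPM over the 6 libraries (log axis) and its log2 fold change, neo1 MUT minus netrin-1 WT, from the fit with the replicate block. Of 20246 genes, 284 were called lower (blue) and 79 higher (red).

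Set side by side in all 4 groups, many of the genes described below took 1 of 2 forms, read from their values without a test: the level in neo1 MUT lay apart from control, unc5B MUT and netrin-1 WT, or the level in netrin-1 WT lay apart from the other groups. Others, among them Sfmbt2, Peg10 and Gm48362, took neither form. The contrasts share libraries, so each gene's values are given beside each other. Of the 20246 genes, the shares called were 5.14% for neo1 MUT against control, 4.72% for neo1 MUT against unc5B MUT, 3.49% for netrin-1 WT against control and 1.95% for unc5B MUT against netrin-1 WT.

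Among genes of the first form, the clearest were neighbours on chromosome 11. AI662270 (chr11:83223576-83226604) had 2.05, 2.54 and 3.57 CPM in neo1 MUT against 21.9, 20.4 and 33.4 in netrin-1 WT. Control libraries had 22.9, 16.7 and 23.0 CPM and unc5B MUT libraries 43.8, 29.9 and 31.2, so every neo1 MUT library lay below every other library. It fell by 3.22 ± 0.24 on the log2 scale (edgeR adjusted p = 0.000126), and neo1 MUT minus unc5B MUT was -3.72 (edgeR adjusted p = 3.49e-05). Gm11427, which overlaps it and shares 14.8% of the 31-base words of AI662270, fell by 2.96 ± 0.22 (edgeR adjusted p = 0.000117); reads of this pair may have been divided between them. Beside them lie the Schlafen genes, a family with interferon-inducible members. From Slfn9 to Gm11427, 5 of 7 tested genes fell, with Slfn3 at 0.833, 1.02 and 0.420 CPM in neo1 MUT and 3.05, 3.45 and 2.37 in netrin-1 WT (log2 fold change -2.06 ± 0.35, edgeR adjusted p = 0.015). Slfn4 was nearly absent from neo1 MUT (0.0855, 0.0523 and 0.0525 CPM against 0.664, 0.451 and 1.16). Slfn3 lost its call without neo1 MUT 1, 2 or 3 or netrin-1 WT 2 (adjusted p up to 0.0982), Slfn4 without neo1 MUT 1, 2 or 3 (up to 0.0962) and Slfn9 without any library but netrin-1 WT 3 (up to 0.179); AI662270 and Gm11427 kept theirs in all 6 such fits. The neighbours were chosen after their values were seen.

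Imprinted genes, which are transcribed from 1 parental allele under the control of DNA methylation, had the largest share of calls among the autosomal lists. Of 29 tested members 6 were called (20.7%, beside 1.79% of all autosomal genes): Peg13, Peg3, Grb10, Ndn and Snrpn fell and Peg10 rose. The median log2 fold change of the list was -0.55 (-0.32, -0.52 and -0.26 within numbers 1, 2 and 3) beside 0.02 for all autosomal genes. Peg13, a noncoding RNA expressed from the paternal allele, had 1.41, 1.18 and 0.997 CPM in neo1 MUT and 7.90, 7.37 and 6.10 in netrin-1 WT. The groups were well apart (log2 fold change -2.60 ± 0.24, edgeR adjusted p = 0.000683), and control (11.7, 11.2 and 5.14 CPM) lay with netrin-1 WT. Peg3, a paternally expressed zinc finger gene, had 26.6, 38.6 and 13.2 CPM against 67.1, 60.7 and 30.4. Its groups overlapped across numbers, and within each number neo1 MUT was the lower (log2 fold change -1.06 ± 0.15, edgeR adjusted p = 0.00519). In the other direction, Peg10, a gene derived from a retrotransposon, had 238, 238 and 274 CPM against 129, 170 and 68.0 (log2 fold change 1.15 ± 0.24, edgeR adjusted p = 0.0339). Peg13 and Peg3 kept their calls whichever library was left out; Peg10, Grb10, Ndn and Snrpn each lost theirs in at least 4 of the 6 fits (adjusted p up to 0.105, 0.167, 0.16 and 0.169), and each of the 6 libraries mattered to at least 1 of these. H19, the maternally expressed noncoding RNA, was not called (log2 fold change -0.83 ± 0.27, edgeR adjusted p = 0.174), except without neo1 MUT 1 (edgeR adjusted p = 0.0249). Sfmbt2, an imprinted polycomb-associated gene outside the list, fell by 2.35 ± 0.32 (edgeR adjusted p = 0.00483), from 9.55, 8.78 and 6.25 CPM to 2.46, 1.94 and 0.892. Here netrin-1 WT was itself below control (35.8, 26.2 and 10.6 CPM; log2 fold change -1.39, edgeR adjusted p = 0.0278).

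Guidance receptors gave a further gene of this form. Ephb4, the receptor tyrosine kinase for ephrin-B2, had 20.3, 20.2 and 30.6 CPM in neo1 MUT and 64.0, 66.7 and 55.4 in netrin-1 WT. All 9 libraries of the other groups lay between 55.4 and 68.6 CPM, above every neo1 MUT library. It fell by 1.40 ± 0.17 (edgeR adjusted p = 0.00262), and by 1.38 against control (edgeR adjusted p = 0.00185). Robo1, a receptor for the Slit repellents, rose (34.9, 46.8 and 19.99 CPM against 25.2, 20.7 and 9.01; log2 fold change 0.93 ± 0.17, edgeR adjusted p = 0.0231), with overlapping groups and with its call lost without neo1 MUT 2 or 3 or netrin-1 WT 2 or 3 (adjusted p up to 0.118). These were the called genes among 37 tested guidance cues and receptors other than the netrins (5.41%), whose median was -0.15.

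Olfr1459, of the olfactory receptor family, fell by 2.03 ± 0.20 (edgeR adjusted p = 0.000965), with 39.8, 28.7 and 87.1 CPM in neo1 MUT and 203, 81.3 and 388 in netrin-1 WT; the ranges overlapped through netrin-1 WT 2. Ushbp1, whose product binds the scaffold protein harmonin, had 5.34, 6.36 and 2.89 CPM against 33.5, 31.1 and 8.38 (log2 fold change -2.21 ± 0.24, edgeR adjusted p = 0.00131). Both were also lower than in control (log2 fold changes -2.14 and -1.77; edgeR adjusted p = 0.000564 and 0.0032).

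Of the genes that rose, Thsd7a, a membrane protein with thrombospondin type 1 repeats, had the largest fold change after the much less counted Naaladl2 (log2 fold change 7.24). Its levels were 9.46, 4.16 and 3.72 CPM in neo1 MUT and 0.0738, 0.0530 and 0.0485 CPM in netrin-1 WT, from 673 and 6 summed counts. Control 1 and unc5B MUT 1 had 0.531 and 0.547 CPM and their other libraries no more than 0.0558, so no other library came near the mutant (log2 fold change 6.80 ± 0.66, edgeR adjusted p = 0.000822). The size of this fold change rests on few netrin-1 WT counts: it was 5.88 without netrin-1 WT 1 and 7.55 without neo1 MUT 1. Lin28b, an RNA-binding protein that blocks maturation of let-7 miRNAs, had 30.3, 31.5 and 18.99 CPM against 14.3, 13.0 and 5.86. It rose by 1.33 ± 0.18 (edgeR adjusted p = 0.00498), and it was higher than in control and unc5B MUT by 1.14 in each case (edgeR adjusted p = 0.00789 and 0.0086). Tmem235 rose by 2.73 ± 0.33 (edgeR adjusted p = 0.00262), from 0.197, 0.212 and 0.291 CPM to 1.18, 1.39 and 2.26, and was the higher gene called without the block. Thsd7a, Lin28b and Tmem235 were called whichever library was left out. Cdx1, a homeobox gene activated by Wnt signalling, had 4.59, 4.68 and 7.08 CPM against 1.53, 1.80 and 2.57; its call (log2 fold change 1.48 ± 0.24, edgeR adjusted p = 0.0139) was lost without neo1 MUT 1 or 3 or netrin-1 WT 1 or 2 (adjusted p up to 0.0692). Cdx1 was the called member among 16 tested Wnt targets and antagonists, whose median was -0.08.

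**Figure D2:**
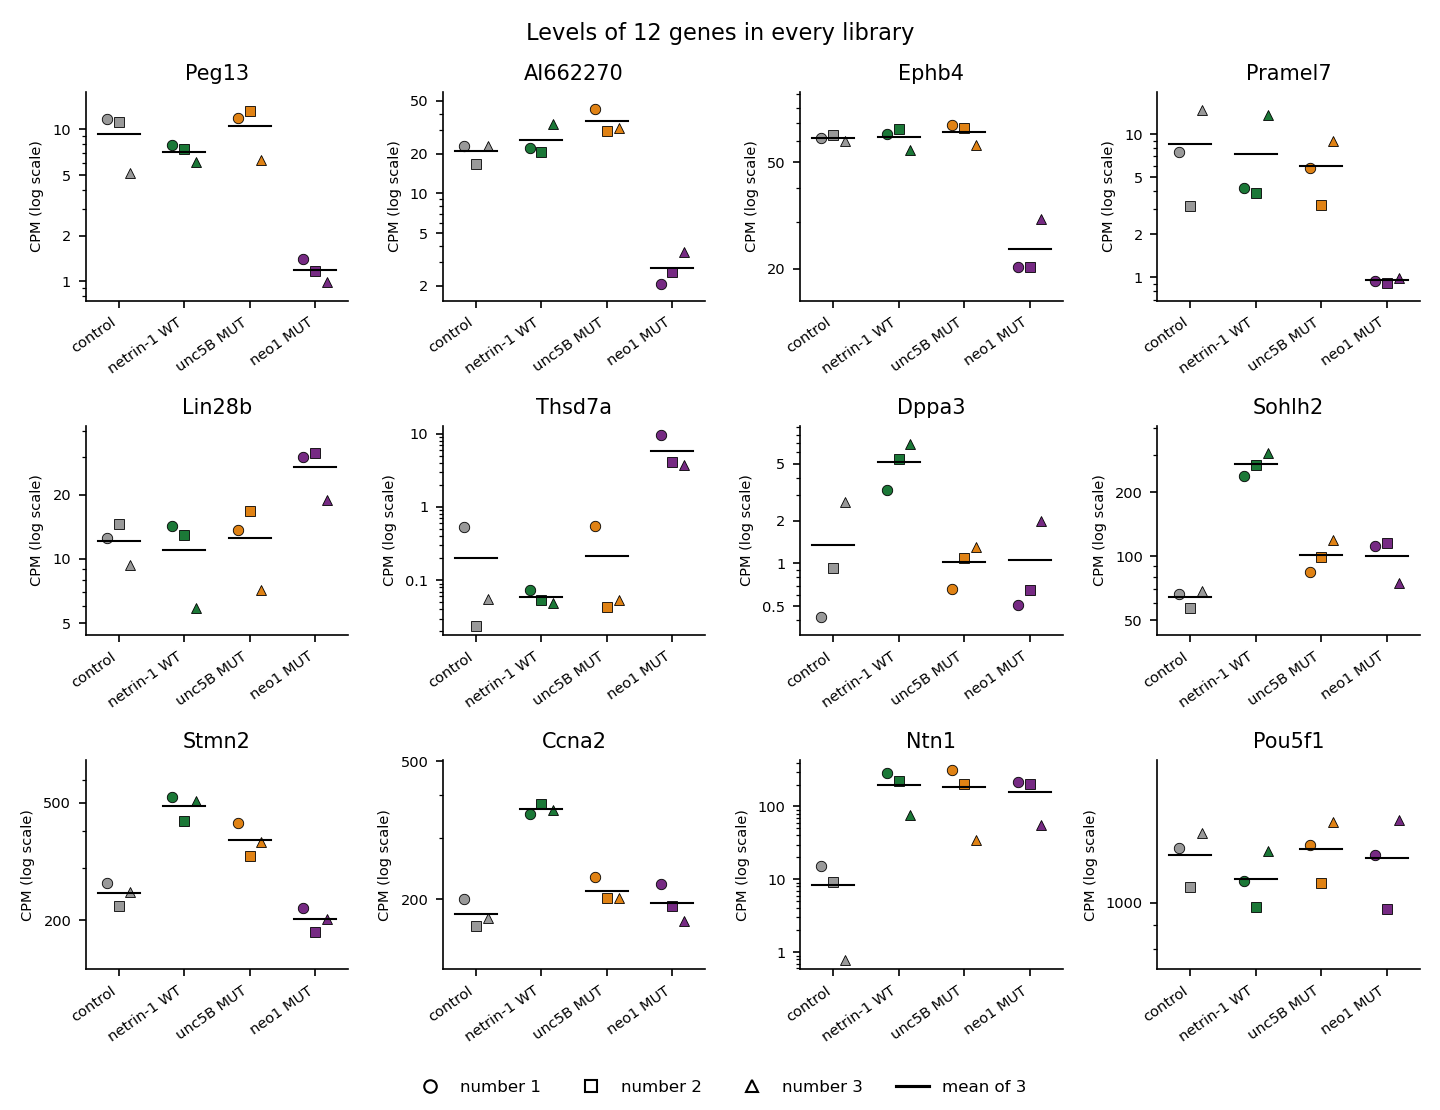
CPM (log axes, each with its own range) of 12 genes in the 3 libraries of each group, with marker shapes for the replicate numbers and bars for the group means. Peg13, AI662270, Ephb4 and Pramel7 are low and Lin28b and Thsd7a high in neo1 MUT alone, Dppa3, Sohlh2 and Ccna2 are high in netrin-1 WT, and Ntn1 and Pou5f1 overlap between neo1 MUT and netrin-1 WT.

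The PRAME-like genes Pramel6 and Pramel7 are leucine-rich repeat proteins of early embryos and naive stem cells, and Pramel7 is known to target the DNA methylation factor Uhrf1 for degradation. They lie next to each other on chromosome 2, on opposite strands, and fell together. Their promoters are shown with those of Dazl and Sohlh2, the called germline genes, because Dazl is known to be silenced by promoter DNA methylation outside germ cells and the windows differ widely in CpG, the dinucleotide that is methylated. Each window runs 5′ to 3′ from 250 bases before to 50 bases after the transcription start (RefSeq, GRCm38.p6); capitals mark CG dinucleotides.
Pramel6 promoter, chr2:87506315-87506614, plus strand: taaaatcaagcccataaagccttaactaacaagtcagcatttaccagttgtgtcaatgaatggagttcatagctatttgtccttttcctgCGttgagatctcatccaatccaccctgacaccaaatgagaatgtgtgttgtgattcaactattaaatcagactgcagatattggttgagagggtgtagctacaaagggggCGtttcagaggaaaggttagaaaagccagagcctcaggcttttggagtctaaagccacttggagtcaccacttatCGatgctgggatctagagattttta
Pramel7 promoter, chr2:87492369-87492668, minus strand: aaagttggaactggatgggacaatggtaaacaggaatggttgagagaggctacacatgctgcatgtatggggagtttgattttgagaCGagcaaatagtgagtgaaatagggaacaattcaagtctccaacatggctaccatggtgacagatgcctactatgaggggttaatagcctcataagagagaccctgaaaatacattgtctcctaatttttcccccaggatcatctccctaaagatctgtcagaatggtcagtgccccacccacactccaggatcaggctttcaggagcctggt
Dazl promoter, chr17:50293571-50293870, minus strand: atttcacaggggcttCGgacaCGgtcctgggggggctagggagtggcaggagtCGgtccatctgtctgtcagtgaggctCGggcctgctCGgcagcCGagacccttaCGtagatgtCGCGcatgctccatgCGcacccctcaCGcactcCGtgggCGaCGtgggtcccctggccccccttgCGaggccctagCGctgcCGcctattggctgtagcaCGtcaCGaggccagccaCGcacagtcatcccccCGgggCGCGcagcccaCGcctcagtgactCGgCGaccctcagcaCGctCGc
Sohlh2 promoter, chr3:55181794-55182093, plus strand: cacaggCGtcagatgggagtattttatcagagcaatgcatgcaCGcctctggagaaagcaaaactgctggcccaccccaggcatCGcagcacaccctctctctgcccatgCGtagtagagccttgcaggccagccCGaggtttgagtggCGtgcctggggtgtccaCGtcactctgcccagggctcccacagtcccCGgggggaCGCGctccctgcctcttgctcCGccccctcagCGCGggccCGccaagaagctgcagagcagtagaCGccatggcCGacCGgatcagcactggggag

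The Pramel6 window holds 3 CpG and the Pramel7 window 1, against a median of 18 in the promoters of tested genes. In a gapped global alignment the pair is identical at 48.2% of columns. No other pair was aligned, so whether unrelated windows would give less was not tested. The Pramel7 window lies inside the gene as counted (chr2:87489087-87497093, minus strand), away from the annotated 5′ end of that gene. Pramel7 had 0.940, 0.915 and 0.997 CPM in neo1 MUT, 4.23, 3.87 and 13.6 in netrin-1 WT and 7.55, 3.13 and 14.8 in control. The mutant libraries were nearly equal and all below the rest (log2 fold change -2.62 ± 0.37, edgeR adjusted p = 0.00541). Pramel6 had 1.28, 0.602 and 0.367 CPM against 6.67, 2.60 and 14.7 (log2 fold change -3.48 ± 0.70, edgeR adjusted p = 0.0316), a call lost without neo1 MUT 1, 2 or 3 (adjusted p up to 0.14). Its fold change was -2.24 without netrin-1 WT 3 and -4.13 without netrin-1 WT 1.

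Of 22 germline genes known to be silenced by DNA methylation 19 were tested. Dazl and Sohlh2 fell and none rose (10.5% called; DESeq2 called 5 members, beside 5.13% of all autosomal genes, and voom 1, beside 2.29%), and 15 of the 19 had a fold change below 0, with a list median of -0.42 (0.10, -0.47 and -0.72 within numbers 1, 2 and 3). Dazl, an RNA-binding protein of germ cells, had 17.4, 11.8 and 20.1 CPM in neo1 MUT and 28.2, 29.2 and 85.9 in netrin-1 WT. Its groups did not overlap (log2 fold change -1.46 ± 0.31, edgeR adjusted p = 0.0404), and the call was lost in 5 of the fits without 1 library, all but that without netrin-1 WT 1 (adjusted p up to 0.161). Sohlh2, a helix-loop-helix factor of germ cells on chromosome 3, had 111, 115 and 74.4 CPM against 238, 269 and 306 (log2 fold change -1.42 ± 0.19, edgeR adjusted p = 0.00431). In contrast to Dazl, Sohlh2 was high in netrin-1 WT relative to control (66.7, 56.9 and 68.5 CPM), where neo1 MUT was not called (log2 fold change 0.66, edgeR adjusted p = 0.0728). Sohlh2 lies in a run of neighbours that fell, at the end of the stretch of chromosome 3 described below. The Dazl and Sohlh2 windows printed above hold 28 and 17 CpG. The E-box CACGTG, searched on both strands, was in 16 of 23 promoter windows of tested germline-list genes (69.6%), against 9.29% of the windows of tested genes, and TCCCGC, searched likewise, in 34.8% against 32%; neither motif is in the Dazl or Sohlh2 window. Several genes have more than 1 window, and the germline list was compiled with such promoters known.

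Among DNA methylation enzymes 1 of 14 tested was called (7.14%, beside 1.79% of all autosomal genes). The list's median was -0.02, with 7 members above 0 and 7 below. Dnmt3l, the catalytically inactive cofactor of the de novo methyltransferases, had 210, 137 and 177 CPM against 321, 290 and 221, a fall of 0.67 ± 0.15 (edgeR adjusted p = 0.0477) that was lost in 5 of 6 fits without 1 library, all but that without netrin-1 WT 3 (adjusted p up to 0.195). Dnmt3a stood at 241, 274 and 365 CPM against 218, 217 and 241 and was not called (log2 fold change 0.36 ± 0.13, edgeR adjusted p = 0.222).

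A set of related lincRNAs, singled out after their values were seen, also fell. Gm48362, Gm43549, Gm42047, Gm47761 and Gm46349 lie on chromosomes 9, 3, 8, 10 and 12 and share long stretches: 67.2% of the 31-base words of Gm43549 are in Gm48362, and 79.7% of those of Gm46349 in Gm42047. Reads of these genes may have been divided between them, so they are not independent. Gm48362 stood at 18.3, 29.2 and 17.5 CPM in neo1 MUT and at 137, 108 and 132 CPM in netrin-1 WT, while unc5B MUT gave 149, 113 and 105 CPM and control 52.4, 46.9 and 61.7 CPM. Control thus lay between the mutant and the groups with the other forms of netrin-1. The fall was 2.53 ± 0.23 (edgeR adjusted p = 0.000484), the other members fell by 2.31 to 2.51, and neo1 MUT was also below control for Gm48362 (log2 fold change -1.31, edgeR adjusted p = 0.00957). Gm46349 lost its call without neo1 MUT 1 or 3 (adjusted p up to 0.06), and the others kept theirs.

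Genes that fell also clustered by position. The counts that follow are of all called genes, whatever their form. Chromosome 3 had 84 of the 284 genes that fell, 6 that rose, and 8.51% of its 1057 tested genes called, followed by chromosome 6 with 3.3% (30 lower, 5 higher) and chromosome 2 with 2.27% (28 lower, 8 higher), as the bars by chromosome show. Between 5 and 55 Mb of chromosome 3 (GRCm38), 76 of 235 tested genes fell and 1 rose, 32.8% called, so that 1.16% of the tested genes gave 26.8% of those that fell. The bounds were set after the positions were seen. Outside this stretch 78 genes rose and 208 fell of 20011 (1.43%).

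**Figure D3:**
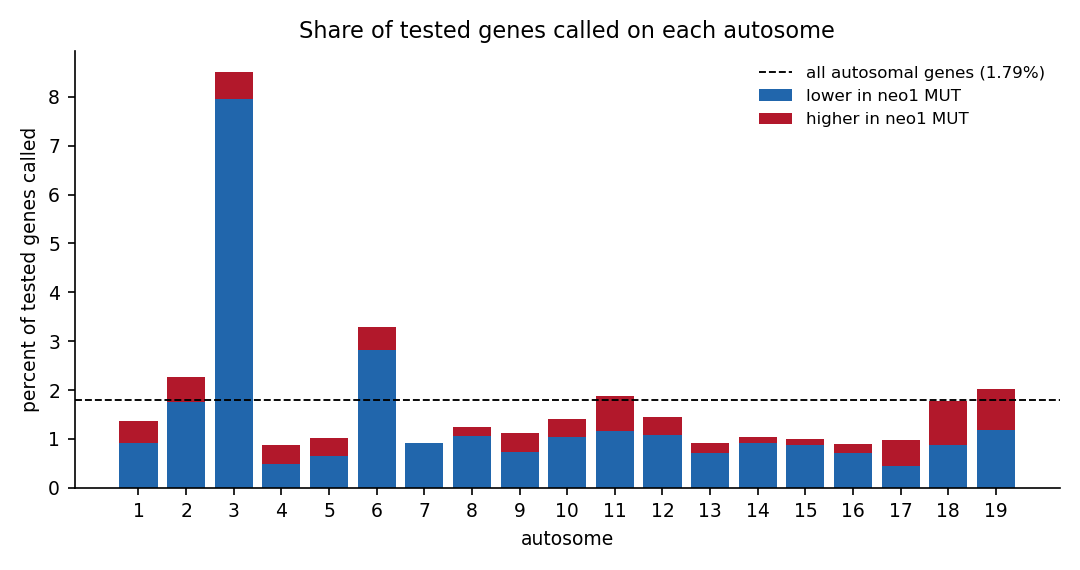
Bars give, for each autosome, the percent of its tested genes called lower (blue) and higher (red) in neo1 MUT than in netrin-1 WT. The dashed line is the 1.79% of all autosomal genes; chromosome 3 reaches 8.51% and chromosome 6 3.3%.

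The shift in this stretch was moderate and broad. Of its 96 genes above 10 CPM, 92 had a fold change below 0, with a median of -0.80 (-0.82, -0.87 and -0.79 within numbers 1, 2 and 3). The same genes had a median of 0.92 for netrin-1 WT minus control and 0.11 for neo1 MUT minus control; unc5B MUT minus netrin-1 WT gave -0.68. The rest of chromosome 3 had a median of 0.09, with 8 lower and 5 higher of 822. Of these 8, 4 lay directly past the bound: Spg20, Sohlh2, Gm43549 and Nbea fell, 4 of 6 tested genes at chr3:55112108-56183701, so the lower genes did not end at 55 Mb. Leaving out a library of either group changed the 76 lower genes to 38 to 77 (38 without netrin-1 WT 2, 77 without netrin-1 WT 3, and 42 to 49 without each other one), the fit without number 3 gave 86, and the fit without the block 3. Copy number was not measured, and whether the number of copies of this stretch, or the cells that make up each culture, differed between the groups was not tested.

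Stmn2, the microtubule regulator stathmin-2, stood at 220, 182 and 202 CPM in neo1 MUT and at 523, 434 and 510 CPM in netrin-1 WT, while unc5B MUT gave 428, 330 and 369 CPM and control 268, 224 and 249 CPM. Netrin-1 WT was the highest and neo1 MUT the lowest without overlap (log2 fold change -1.28 ± 0.09, edgeR adjusted p = 6.37e-05). Setd7, a lysine methyltransferase, fell by 1.37 ± 0.17 (edgeR adjusted p = 0.0024), with 13.8, 12.2 and 11.2 CPM against 34.9, 28.9 and 32.6; control and unc5B MUT had 9.995 to 12.1 CPM and 13.0 to 16.1 CPM. Supt20, a subunit of the SAGA coactivator, had 129, 124 and 96.4 CPM against 303, 332 and 232, where control had 109, 101 and 96.5 and unc5B MUT 121, 115 and 98.3. Neo1 MUT and control thus lay together for Supt20 (log2 fold change 0.18, edgeR adjusted p = 0.377), and netrin-1 WT above them. Foxo1, a forkhead factor downstream of insulin signalling, had 55.4, 72.9 and 27.6 CPM against 151, 167 and 66.6 and fell by 1.31 ± 0.14 (edgeR adjusted p = 0.00131). Its groups overlapped across numbers, and control (44.8, 61.9 and 31.4 CPM) and unc5B MUT (46.9, 63.3 and 32.5 CPM) lay with neo1 MUT. Alg5, which makes dolichyl-phosphate glucose for protein glycosylation, had 11.5, 7.74 and 7.34 CPM against 31.1, 27.6 and 40.3, with 12.3 to 17.8 CPM in control and 13.1 to 19.6 CPM in unc5B MUT, a fall of 1.90 ± 0.19 (edgeR adjusted p = 0.000822); neo1 MUT was here also below control (log2 fold change -0.82, edgeR adjusted p = 0.0303). Stmn2, Setd7, Supt20, Foxo1 and Alg5 were called whichever library was left out. Stmn2, Setd7, Supt20 and Foxo1 were named after their values were seen.

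In several lists the called member lay in this stretch. Cyclin A2 (Ccna2), which drives S phase and mitotic entry, had 222, 191 and 173 CPM against 352, 377 and 363, without overlap (log2 fold change -0.91 ± 0.10, edgeR adjusted p = 0.0019), and was the called gene among 30 cell cycle and replication genes (3.33%; median -0.01). Ndufb5, a subunit of respiratory complex I, fell by 0.83 ± 0.12 (edgeR adjusted p = 0.0073) as 1 of 31 respiratory chain genes tested (3.23%; median 0.05). Zmat3, an RNA-binding p53 target, had 96.1, 135 and 79.7 CPM against 192, 220 and 131, with overlap between numbers (log2 fold change -0.81 ± 0.11, edgeR adjusted p = 0.00431); it was 1 of 18 p53 targets (5.56%; median -0.01). Smad9, a BMP-responsive Smad, fell by 2.14 ± 0.35 at 0.897, 0.863 and 0.367 CPM against 2.95, 2.89 and 3.25 (edgeR adjusted p = 0.0118), as 1 of 20 BMP and Id genes (5%; median -0.17). Spry1, a feedback inhibitor of ERK signalling, fell by 0.74 ± 0.16 (edgeR adjusted p = 0.0388), as 1 of 19 ERK response genes (5.26%; median 0.03). Sox2 lies in the same stretch and had 457, 402 and 290 CPM against 617, 739 and 316; it was not called (log2 fold change -0.49 ± 0.14, edgeR adjusted p = 0.116), except without netrin-1 WT 3 (edgeR adjusted p = 0.0195). Smad9 lost its call without neo1 MUT 2 or 3 (adjusted p up to 0.0542) and Spry1 in all fits without 1 library except that without netrin-1 WT 3 (up to 0.177).

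**Figure D4:**
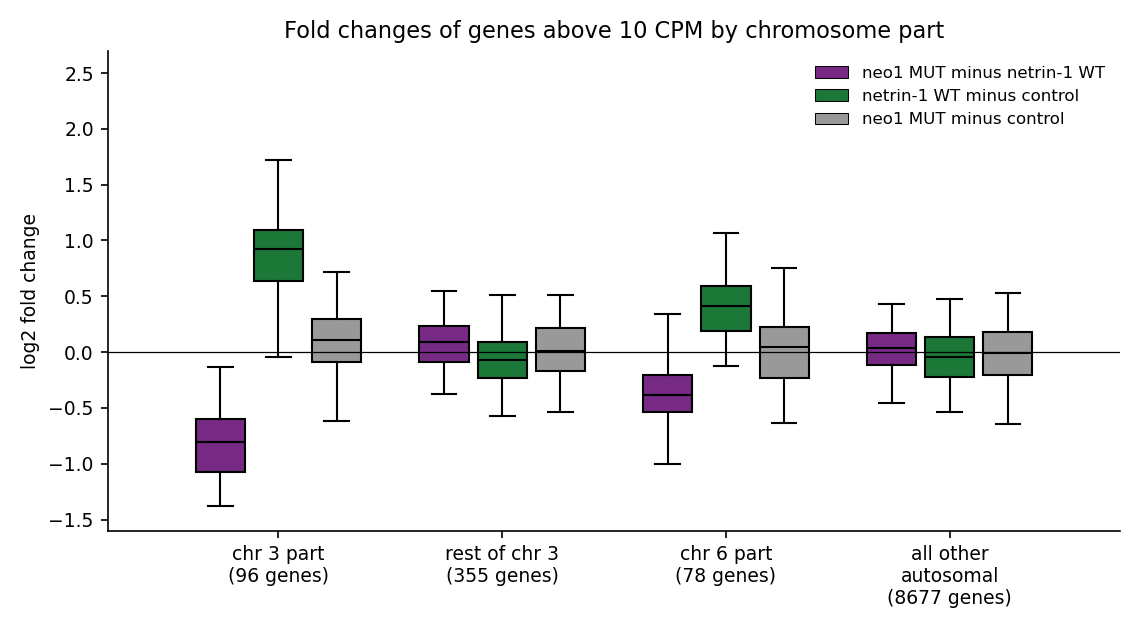
Boxes give the median and quartiles, and whiskers the 5th to 95th percentile, of the log2 fold changes of genes above 10 CPM in the stretch of chromosome 3, the rest of chromosome 3, the distal stretch of chromosome 6 and all other autosomal genes, for 3 contrasts that share libraries. The chromosome 3 stretch is at -0.80 for neo1 MUT minus netrin-1 WT, 0.92 for netrin-1 WT minus control and 0.11 for neo1 MUT minus control.

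A weaker shift of the same kind was seen on distal chromosome 6. From 120 to 137 Mb, 15 of 188 tested genes fell and 0 rose (7.98%), and 67 of 78 genes above 10 CPM were below 0, with a median of -0.38 (-0.34, -0.44 and -0.39 within numbers) beside 0.42 for netrin-1 WT minus control and 0.05 for neo1 MUT minus control. These bounds, too, were set after the positions were seen. The 15 became 4 to 17 when a library was left out (4 without neo1 MUT 2 or netrin-1 WT 2, 5 without neo1 MUT 1 or 3, 8 without netrin-1 WT 1). Pex5, the import receptor of peroxisomes, fell by 0.78 ± 0.10 (edgeR adjusted p = 0.00364), with 45.1, 45.3 and 66.7 CPM against 78.9, 82.2 and 106. Dppa3 (Stella), a maternal factor that protects methylation in the zygote and marks naive stem cells, lies in this stretch too. It had 0.513, 0.654 and 1.99 CPM in neo1 MUT, 3.27, 5.41 and 6.88 in netrin-1 WT, 0.420, 0.933 and 2.68 in control and 0.659, 1.09 and 1.30 in unc5B MUT. Netrin-1 WT was above all other libraries, and the log2 fold change of -2.50 ± 0.36 (edgeR adjusted p = 0.00583) stood beside a median of -0.38 for the stretch. Pex5 and Dppa3 were called whichever library was left out.

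Off these stretches, St8sia6, a sialyltransferase on chromosome 2, also stood high in netrin-1 WT. It had 3.95, 4.81 and 3.62 CPM in neo1 MUT, 20.5, 17.9 and 17.9 in netrin-1 WT and 8.98, 4.30 and 3.74 in control (log2 fold change -2.18 ± 0.27, edgeR adjusted p = 0.00262). Lims2, a LIM-domain adaptor of integrin adhesions, showed the reverse: 5.06, 3.84 and 32.5 CPM in neo1 MUT, 1.40, 1.17 and 10.3 in netrin-1 WT and 3.54, 3.40 and 37.2 in control. The number 3 libraries were highest in every group, and within each number netrin-1 WT was lowest (log2 fold change 1.76 ± 0.21, edgeR adjusted p = 0.00214).

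No member of the netrin pathway was called. Over 3 tested ligands, 15 tested receptors and repulsive guidance partners and 35 tested effectors the edgeR quasi-likelihood test gave 0 calls with the block, with medians of -0.05, -0.21 and 0.07. At an unadjusted p under 0.05 there were 0 ligands, 2 receptors and 6 effectors; DESeq2 called 0, 1 and 4 of them and voom 0, 0 and 2. Over all autosomal genes 13.9% had such an unadjusted p, and DESeq2 called 5.13% and voom 2.29%. Neo1 had 70.9, 76.7 and 33.6 CPM in neo1 MUT and 91.8, 82.2 and 40.8 in netrin-1 WT, lower in the mutant within each number but overlapping (log2 fold change -0.25 ± 0.12, edgeR adjusted p = 0.387). Unc5b had 28.2, 31.8 and 17.5 CPM against 19.6, 26.3 and 17.4 (log2 fold change 0.28 ± 0.16, edgeR adjusted p = 0.484). Dcc had too few counts to be tested. With these standard errors, differences of the size seen for Neo1 and Unc5b could not be told from none.

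Pluripotency markers were abundant in all 6 libraries. Pou5f1 had 1260, 969 and 1487 CPM in neo1 MUT and 1109, 979 and 1281 in netrin-1 WT (log2 fold change 0.13 ± 0.09, edgeR adjusted p = 0.546), with overlapping groups. Nanog had 208, 105 and 128 CPM against 238, 183 and 441, lower within each number (log2 fold change -1.02 ± 0.30, edgeR adjusted p = 0.133), and called only without netrin-1 WT 1 (edgeR adjusted p = 0.037). Like Dppa3, Nanog lies in the distal stretch of chromosome 6 described above, whose median was -0.38. Of 13 core pluripotency genes 0 were called, of 14 tested formative and primed genes 0, and of 17 tested naive genes 1, Dppa3 (5.88%); the naive list had a median of -0.22 (-0.22, -0.20 and -0.35 within numbers). Of the core and formative genes 2 and 3 had an unadjusted edgeR p under 0.05, DESeq2 called 2 and 1 and voom 0. Esrrb and Zfp42 were not called (log2 fold changes -0.07 ± 0.16 and -0.60 ± 0.24; edgeR adjusted p = 0.897 and 0.285).

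Of 26 tested primitive endoderm genes, 21 were called lower in neo1 MUT than in control and 20 lower in netrin-1 WT than in control, and 0 higher in either. Over all autosomal genes, 5.14% and 3.49% were called in these contrasts, in either direction. Gata6 had 16.7, 13.8 and 10.3 CPM in neo1 MUT, 11.9, 10.8 and 17.1 in netrin-1 WT and 78.4, 59.7 and 50.3 in control. Neo1 MUT and netrin-1 WT overlapped, and control was above both. The unc5B MUT libraries, at 50.7, 39.1 and 40.0 CPM, also lay above both. Between neo1 MUT and netrin-1 WT, 2 of 26 tested members were called (7.69%). Amn, the partner of cubilin in endocytosis, had 4.83, 4.55 and 5.25 CPM against 2.31, 2.15 and 1.99 and rose by 1.17 ± 0.18 (edgeR adjusted p = 0.00977), below the 17.3, 16.1 and 18.5 CPM of control. Nid1, a basement membrane linker, had 115, 134 and 79.8 CPM against 206, 220 and 192 and fell by 0.92 ± 0.17 (edgeR adjusted p = 0.0199); control, at 160, 130 and 166 CPM, lay between the group means. The list's median was 0.30 over the fit but 0.70, 0.32 and -0.79 within numbers 1, 2 and 3, so number 3 went the other way. Amn lost its call without neo1 MUT 1 (adjusted p = 0.0503), and Nid1 without neo1 MUT 1 or 3 or netrin-1 WT 1 or 2 (up to 0.0961). In these bulk libraries fewer cells of a type and less RNA per cell cannot be told apart.

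Number 3 also went its own way in the 2-cell-like genes, which mark a rare early-embryo-like state. Their median was 0.11, 0.27 and -2.46 within numbers 1, 2 and 3, and the summed level of the list was 80.0, 82.4 and 11.5 CPM in neo1 MUT and 70.9, 60.1 and 73.7 in netrin-1 WT. Sp110, a nuclear body protein, was the called member of 17 tested (5.88%), with 0.342, 0.183 and 0.577 CPM against 1.23, 0.902 and 7.61 (log2 fold change -2.65 ± 0.43, edgeR adjusted p = 0.013; lost without neo1 MUT 2 or 3, adjusted p up to 0.0691). Copies of Zscan4 and its relatives in this list are nearly identical, and their reads may have been divided.

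Markers of other cell types were also counted. Of 20 fibroblast and feeder markers 13 were tested and 1, the mesenchymal factor Twist1, was called (7.69%; 0.876, 0.497 and 0.262 CPM against 1.77, 1.94 and 1.50; log2 fold change -1.81 ± 0.39, edgeR adjusted p = 0.0411, lost in all fits without 1 library except that without netrin-1 WT 1, up to 0.152). Col3a1, Postn, Lum and Dcn had too few counts to be tested. The summed level of the list was 112 to 189 CPM in neo1 MUT and 177 to 295 CPM in netrin-1 WT, and the median was -0.56. Of the blood and endothelial markers 5 were tested and 0 called by edgeR, DESeq2 or voom (0 at an unadjusted p under 0.05), with summed levels of 8.12 to 13.5 CPM and 7.37 to 25.0 CPM. Of 9 tested neuroectoderm genes 1 was called (11.1%). Ina, the neuronal intermediate filament internexin, had 40.9, 55.97 and 19.7 CPM in neo1 MUT, 24.2, 14.1 and 1.89 in netrin-1 WT and 43.4, 58.4 and 4.13 in control, with overlapping groups (log2 fold change 1.98 ± 0.44, edgeR adjusted p = 0.0491, lost without neo1 MUT 2 or 3 or netrin-1 WT 2 or 3, up to 0.201). The neuroectoderm list summed to 143 to 185 CPM in neo1 MUT and 140.3 to 198 CPM in netrin-1 WT. Of 13 tested trophectoderm and simple keratin genes 1, Gata3, was called (7.69%). Gata3 fell (log2 fold change -1.63 ± 0.32, edgeR adjusted p = 0.0278). Its call was lost in all fits without 1 library except that without netrin-1 WT 3 (adjusted p up to 0.125). The list had 6 members above 0 and 7 below, with a median of -0.21 (0.13, -0.09 and -0.57 within numbers). The part of any admixed cells in the autosomal calls was not tested.

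Other lists had no edgeR call. Of 40 ribosomal protein genes 0 were called (2 at an unadjusted p under 0.05, 1 by DESeq2, 0 by voom), though 37 had a fold change above 0, with a median of 0.15 (0.21, -0.06 and 0.29 within numbers). The 13 mitochondrially encoded mRNAs were all above 0 with 0 calls (2 at an unadjusted p under 0.05; median 0.17; 0.23, 0.35 and -0.03 within numbers). The lists of LIF and STAT3, Nodal, integrin, apoptosis, cholesterol, hypoxia and unfolded protein response genes had 0 edgeR calls each, with medians between -0.10 and 0.11. Of their 138 tested members 23 had an unadjusted p under 0.05, DESeq2 called 6 and voom 3. These are 16.7%, 4.35% and 2.17% of the members, near the 13.9%, 5.13% and 2.29% of all autosomal genes.

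**Figure D5:**
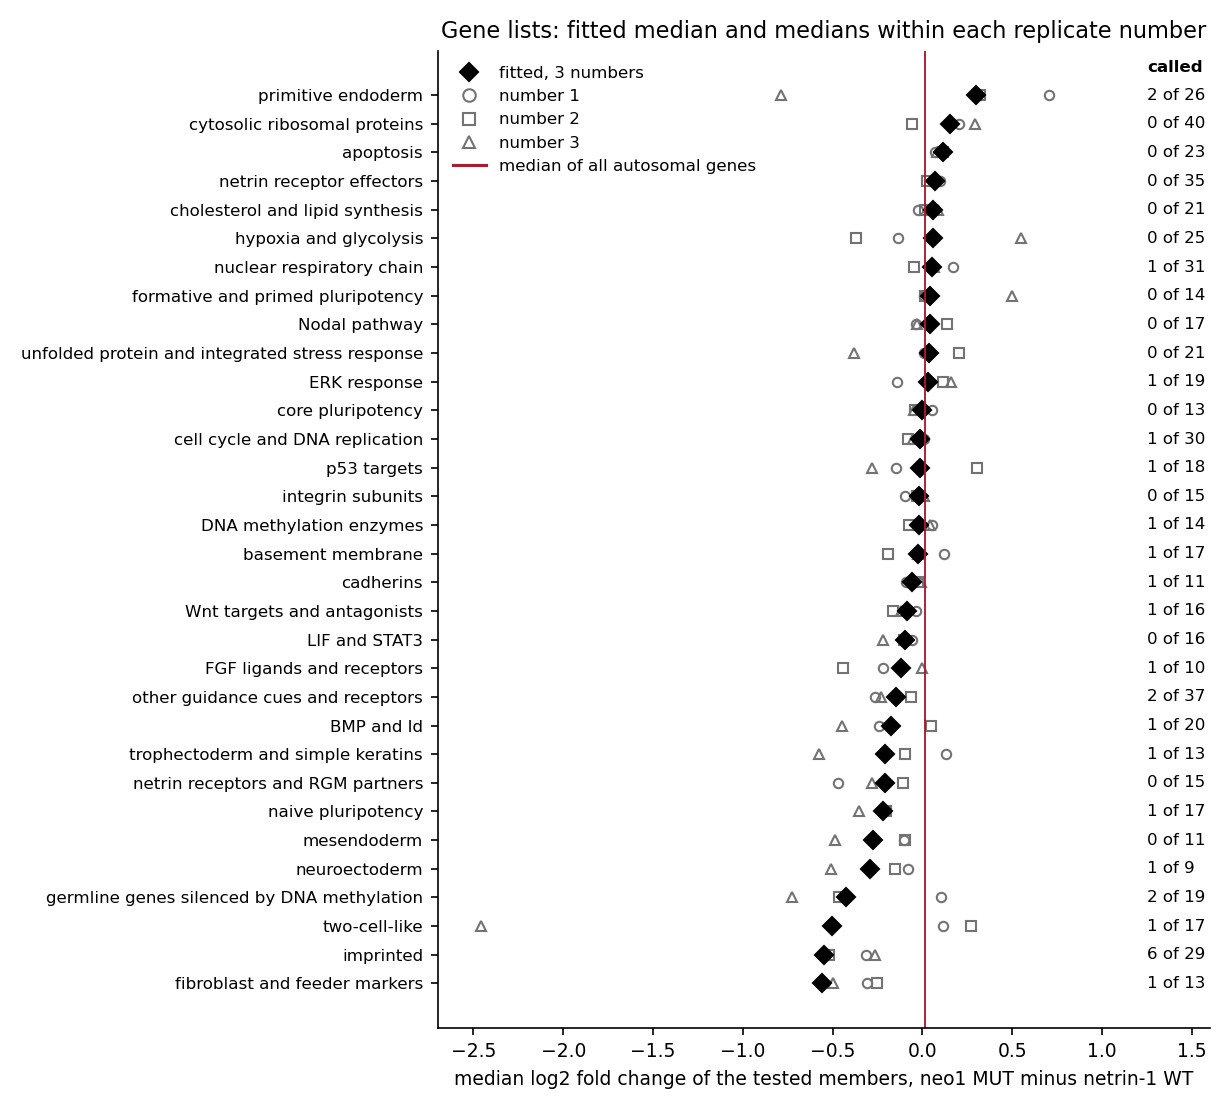
For each list with at least 9 tested autosomal members, the black diamond is the median log2 fold change from the fit with the block, open symbols are medians of the differences within numbers 1, 2 and 3, and the text at the right counts called members. The red line marks the median of all autosomal genes (0.02); number 3 lies far from numbers 1 and 2 for the 2-cell-like and primitive endoderm lists.

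In the authors' deposited table of comparisons, 19562 autosomal genes were listed and 395 had an adjusted p of at most 0.05 for this contrast (96 higher, 299 lower). Of the 363 genes called here, 361 were in the authors' deposited table and 311 were called there too, all in the same direction. Since both start from the same libraries, this compares models and not experiments. The authors' deposited table gives log2 fold changes of 6.20 for Thsd7a, -3.22 for AI662270, -2.56 for Peg13 and -1.47 for Ephb4. Pramel6, Dazl, Dnmt3l, Twist1 and Peg10, described above as called, were not called there. The authors' unnamed model gave them adjusted p = 0.17, 0.0987, 0.0968, 0.0764 and 0.0513.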

How the data were processed

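Total RNA of 12 libraries was sequenced after column purification, per the labels' protocols. The deposited raw table holds estimated counts per Ensembl gene, not whole numbers, made by the authors; the submitters' processing notes list, with no roles, the builds mm10, GRCm38.p5 and GRCh38 and the tools DESeq2, R 3.3.2, Bowtie2, Bowtie, STAR 2.5.2b and FastQC 0.11.5. Neither the counting program nor its use of strand is recorded there, so antisense or near-identical genes may share reads. The authors' deposited table of comparisons holds log2 fold changes with raw and adjusted p-values for each contrast, per the file headers, which do not name the model. The deposited normalized table was not used here.

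The estimated counts were rounded and analysed with edgeR 4.0.16 (R 4.3.3, limma 3.58.1). IDs were matched to GENCODE M21 (GRCm38; 52566 of 52661). Groups and numbers came from the titles. All 12 libraries entered 1 quasi-likelihood fit with group and replicate number as terms, TMM normalization and the filterByExpr filter (21053 genes). P-values were adjusted over all of these by Benjamini-Hochberg. A fold change is neo1 MUT minus netrin-1 WT. The value after ± is an approximate standard error, the absolute log2 fold change divided by the square root of the test's F statistic. Within-number values are differences of log2 CPM (prior count 2) and have no test. An exact permutation test of 3 against 3 libraries cannot go below 0.1, so none was run. The scripts were tested on simulated counts.

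Same-numbered neo1 MUT and netrin-1 WT libraries deviated together from their group means (correlations 0.60, 0.70 and 0.84, above the minimum of 0.1 for pairing); between numbers 1 and 2 they were 0.69 and 0.49, and between number 3 and the others -0.60 to -0.79. Since number 3 stood apart in both groups, these correlations cannot tell whether numbers 1 and 2 are matched between groups. What the numbers mark is not in the labels. Every column of per-sample values was mapped.

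The comparison, its gene lists and the rule for named genes were chosen with earlier results of these data known. The rule took the 15 genes each way with the largest absolute fold change among called autosomal genes with at least 5 CPM on average in whichever group was higher, a conventional symbol and 1 sign in all 3 numbers; 10 receptor, pluripotency and endoderm genes; and up to 4 called members per list (1 CPM or more), or its most abundant member. Other genes named in the text were chosen after their values were seen. Alternatives were other normalizations, filters, tests and thresholds, and leaving out libraries.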

Additional observations from a re-analysis of the deposited data

How the results depend on the processing

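Without the replicate block the edgeR quasi-likelihood test called 9 autosomal genes (1 higher, 8 lower), all among the 363. That fit gave 917 autosomal genes at an unadjusted p under 0.05, and 3 of the 49 called named genes kept their call. The count thus depended on the block, and also on the libraries in the fit. A fit of only the 6 libraries compared gave 66 (7 higher, 59 lower), and a threshold of 0.01 gave 101 (13 higher, 88 lower). A fold change of at least 2 beside the threshold left 230 (45 higher, 185 lower). DESeq2 called 1038 (396 higher, 642 lower) and the fit without number 3 libraries 599 (199 higher, 400 lower), so that 61.8% and 66.8% of calls were lower against 78.2%; voom called 121 higher genes. With no filter on low counts 131 genes were higher. Leaving out 1 library gave 118 to 361 calls (12 to 91 higher, 106 to 270 lower), fewest without netrin-1 WT 2. Of the 49 called named genes, 17 were called in all 6 such fits, 49 by DESeq2, 48 by voom and 40 without number 3 and 15 in the fit of the 6 libraries alone, where Dppa3, Lin28b, Ndufb5, Pramel7 and Zmat3, called in every fit without 1 library, lost their call; none changed direction under any setting tried. Among genes named after their values were seen, Peg3, Pex5, Tmem235, Dgkb and Cct3 were also called in every fit without 1 library. They too lost their call in the fit of the 6 libraries alone (edgeR adjusted p up to 0.0693). The cause of the differences between settings was not tested. With 3 libraries a group in which number 3 stands apart, small differences were not detectable, and a gene that was not called is not shown to be equal.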

Other observations

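Some processed pseudogenes differed widely between libraries without being called. Gm12671, a processed pseudogene on chromosome 4, had 0, 82.3 and 1312 CPM in neo1 MUT and 0, 0 and 1269 CPM in netrin-1 WT (log2 fold change 5.56 ± 2.16, edgeR adjusted p = 0.262). Rpl14-ps1 had 108, 0 and 802 CPM against 1.06, 0 and 692 (log2 fold change 3.71 ± 1.71, edgeR adjusted p = 0.359). In both the number 3 libraries were high in every group, and numbers 1 and 2 were at or near 0 in every library but 1: neo1 MUT 2 for Gm12671 and neo1 MUT 1 for Rpl14-ps1. The way reads were divided between a gene and its copies was not tested.

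Dgkb, a diacylglycerol kinase, was low in netrin-1 WT alone: 0.148, 0.0796 and 0.0485 CPM, against 1.20, 0.915 and 0.367 in neo1 MUT, 1.08, 0.885 and 0.279 in control and 1.58, 1.70 and 0.272 in unc5B MUT (neo1 MUT minus netrin-1 WT 3.17 ± 0.43, edgeR adjusted p = 0.00468). Cct3, a subunit of the TRiC chaperonin on chromosome 3 outside the stretch described, rose too (570, 366 and 492 CPM against 220, 198 and 294, with 516, 574 and 593 in control; log2 fold change 1.01 ± 0.15, edgeR adjusted p = 0.00579). The groups did not overlap for either gene, and both kept their call whichever library was left out. Both lost it in the fit of the 6 libraries alone (edgeR adjusted p = 0.0693 and 0.0546). Both were chosen after their values were seen.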
